A study of Homo sapiens with 8 samples.

Results

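The sites described here are the 7753 autosomal regions of hg19 that the study's authors listed as opened by morphogens in H9 human embryonic stem cells. They were taken as every autosomal entry of a list of 8154 sites; the other 401 lie on chromosome X and were not used. H9 is an established line of pluripotent cells. Open chromatin was mapped with ATAC-seq, an assay that cuts and tags accessible DNA with a transposase. The labels attach the list to 2 groups of 2 libraries each. The wild-type day 0 group was grown in Essential 8 medium on vitronectin, and the wild-type day 7 group was kept for 7 days in Essential 6 medium with 1 uM retinoic acid (RA) and 5 ng/ml BMP4, a treatment meant to yield surface ectoderm. A second list of 6005 autosomal sites, whose name says that the morphogens open them and p63 closes them, is attached to day 7 wild-type and day 7 p63 knockout cells given the same morphogens. It is used only as a yardstick, and its members are called p63-closed sites. Nothing in the labels says whether the 2 libraries of a group came from separate cultures, and all come from 1 cell line.

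Each entry gives a chromosome, a start, an end and a site number. No count, signal or p-value stands beside a site, so read depth is unknown, no value per library can be given, and no difference between cultures was tested. The direction of change is the authors'. A site marks DNA listed as more open and says nothing of a gene's expression, so the identity of the day 7 cells was not checked here. The question put to the list was which developmental regulators, signalling genes and epithelial genes lie at or near its sites.

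Both morphogens act through transcription factors. RA enters the nucleus and binds receptors (RARA, RARB, RARG, paired with RXR partners) that sit on paired hexamers of DNA, and its classic targets include RARB itself, the RA-degrading enzyme CYP26A1 and the HOX genes. BMP4 binds surface receptors that activate SMAD1, SMAD5 and SMAD9, whose best known targets are the ID genes. Surface ectoderm is the simple epithelium, rich in keratins 8 and 18, from which epidermis and its appendages form.

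Gene positions need a caution before any value. No gene annotation of hg19 was used: the starts and ends of 287 genes in 11 lists were written from general knowledge of the assembly, in whole kb, and may be wrong by more than that. Against RefSeq of another build, GRCh38.p14, 324 of 324 genes (these and 37 named later) carried the recalled symbol and chromosome, and 255 of 255 neighbouring pairs over 50 kb apart lay in the same order. The recalled length of the gene was within 2 kb of that in RefSeq for 261 genes and differed by more for 63. A gene with several starts is represented by 1 of them. A site is called near a gene when its centre lies within 100 kb of that start, and at the start when it lies within 5 kb. Nearness does not show that a site acts on the gene.

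Of the 7753 opened sites, 244 (3.15%) were near a listed gene and 34 (0.439%) were at a listed start. The other 7509 (96.9%) lay beyond 100 kb of every listed gene. Opened sites were at the starts of 32 genes, and RefSeq promoters of build GRCh38.p14 were matched for 22 of them. The sequences below are the 250 bases upstream of the RefSeq start of 5 of these, shown because an opened site lay across or at the recalled start. They are an RA receptor, the RA-degrading enzyme, a BMP target, a GATA factor and the EGF receptor. All run 5′ to 3′ on the gene's own strand, which is the plus strand for all 5. Their GRCh38.p14 coordinates are not comparable with the hg19 coordinates of the sites. Capitals mark matches to the motifs searched, on either strand.
RARB, chr3:25428013-25428262: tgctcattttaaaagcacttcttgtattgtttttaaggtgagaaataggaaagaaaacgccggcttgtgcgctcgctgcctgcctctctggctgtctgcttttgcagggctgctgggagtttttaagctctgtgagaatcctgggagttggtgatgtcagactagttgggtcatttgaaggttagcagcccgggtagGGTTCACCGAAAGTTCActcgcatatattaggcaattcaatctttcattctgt
CYP26A1, chr10:93073225-93073474: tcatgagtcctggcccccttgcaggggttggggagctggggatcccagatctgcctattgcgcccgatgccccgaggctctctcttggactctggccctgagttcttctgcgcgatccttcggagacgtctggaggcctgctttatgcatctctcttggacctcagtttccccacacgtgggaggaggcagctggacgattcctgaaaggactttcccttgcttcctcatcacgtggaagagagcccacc
ID1, chr20:31605039-31605288: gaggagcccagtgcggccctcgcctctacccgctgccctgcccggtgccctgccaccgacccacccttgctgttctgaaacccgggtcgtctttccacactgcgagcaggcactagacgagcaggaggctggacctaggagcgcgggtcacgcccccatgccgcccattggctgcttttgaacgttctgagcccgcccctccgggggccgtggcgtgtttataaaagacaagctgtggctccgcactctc
GATA6, chr18:22169339-22169588: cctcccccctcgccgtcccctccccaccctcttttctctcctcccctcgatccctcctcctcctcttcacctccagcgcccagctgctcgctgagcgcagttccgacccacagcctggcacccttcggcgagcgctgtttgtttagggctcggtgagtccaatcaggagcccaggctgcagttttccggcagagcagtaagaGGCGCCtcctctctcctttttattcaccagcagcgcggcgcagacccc
EGFR, chr7:55018767-55019016: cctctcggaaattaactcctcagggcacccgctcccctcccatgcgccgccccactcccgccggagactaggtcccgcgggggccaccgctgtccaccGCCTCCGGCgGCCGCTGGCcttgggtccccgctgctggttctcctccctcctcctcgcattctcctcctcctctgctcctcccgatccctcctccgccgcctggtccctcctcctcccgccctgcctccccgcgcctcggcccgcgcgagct

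The motifs searched were DR5 (a pair of hexamers bound by RA receptors, spaced by 5 bases), GCCNNNGGC (a core bound by TFAP2 factors), AGATAA (bound by GATA factors) and GGCGCC (bound by BMP-activated SMADs). The promoter of RARB was the only one of the 22 with a DR5. Over 27305 RefSeq promoters of the same length, 19 (0.0696%) held one, 19.7% held GCCNNNGGC, 9.37% held AGATAA and 16.1% held GGCGCC. EGFR held GCCNNNGGC in 2 places, GATA6 held GGCGCC, and CYP26A1 and ID1 held none of the 4. A match describes these letters only.

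Over all autosomes there were 2.79 opened sites per Mb (95% Poisson interval 2.73 to 2.85). To give each gene window its background, the autosomes were cut into 13899 windows of 200 kb, the width of the window around a gene start. At least 1 opened site fell in 36.8% of them, at least 3 in 4.12% and at least 5 in 0.568%. No p63-closed site fell in 71.4% of them. Intervals here and below cover counting error only. Because sites lie in groups and neighbouring genes share windows, the counts in a list are not independent.

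Around the RA list the density was 7.71 sites per Mb (5.34 to 10.8), 2.76 times the autosomal value, with 19 of 23 genes (82.6%) near at least 1 site and 5 (21.7%) near at least 3. Around the BMP and TGF-beta list it was 5.00 (3.37 to 7.14), and 18 of 30 genes had a site. The WNT, FGF, hedgehog and Notch list stood at 5.54 (3.98 to 7.52) with 22 of 38 genes, and the surface ectoderm factors at 5.51 (3.69 to 7.91) with 20 of 29. Epithelial structure genes had 5.59 per Mb (3.68 to 8.13), but only 12 of 29 (41.4%) had a site near them. Densities around the other lists had intervals that held the autosomal value: 3.52 (2.25 to 5.24) for placode, crest and mesenchyme factors, 3.33 (1.91 to 5.41) for neural and mesendoderm factors, 3.08 (1.47 to 5.66) for pluripotency genes, 3.12 (1.01 to 7.29) for 8 housekeeping genes and 3.94 (1.70 to 7.76) for 11 genes of other tissues. With windows of 50 and 250 kb on each side, the other-tissue list had 5.81 and 5.56 per Mb. At those widths the BMP and TGF-beta list had 5.67 and 4.17, and surface ectoderm factors 5.63 and 4.82. The WNT, FGF, hedgehog and Notch list had 5.91 and 5.22, epithelial structure genes 8.17 and 5.08, and the RA list 10.8 and 5.81. The place of the other-tissue list below these lists thus depended on window width, except beside the RA list. The share of genes near a site was lowest, 29.4%, for the pluripotency list.

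**Figure D1:**
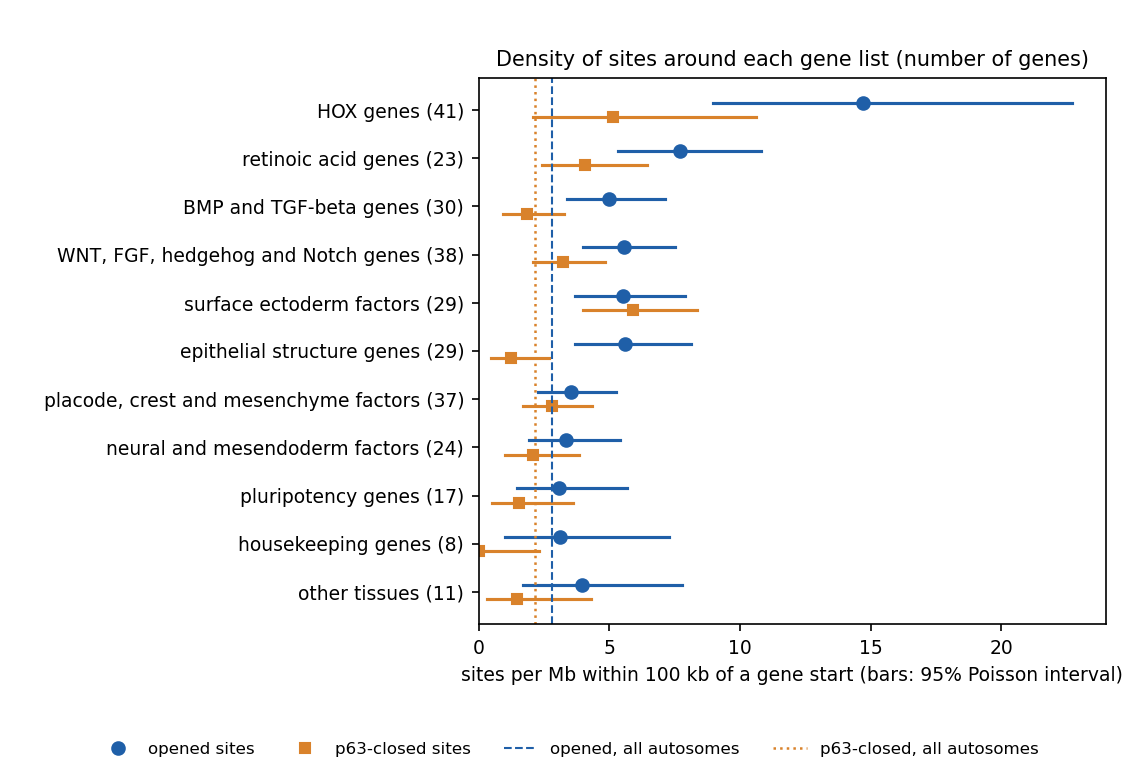
Sites per Mb within 100 kb of the gene starts of each list, with the number of genes in brackets; circles are opened sites, squares p63-closed sites, bars 95% Poisson intervals, and vertical lines the values over all autosomes (2.79 and 2.16). The HOX and RA lists have the highest densities of opened sites, and the intervals of the last 5 lists hold the autosomal value.

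Among the genes that carry and clear RA, CYP26A1 had the clearest overlap with its start. The site chr10:94831482-94835126, 3645 bp wide, covered the start and a second lay 75 kb downstream; the adjoining RA-degrading gene CYP26C1 is near the same 2 sites. CYP26B1, the third of these enzymes, had 1 site 57 kb upstream. RDH10, which oxidises retinol, had 3 sites at 20, 24 and 34 kb, and DHRS3, which works in the reverse direction, had 2 at 68 and 77 kb. Of the enzymes that make RA, ALDH1A2 and ALDH1A3 had 1 site each, 14 and 10 kb inside the gene, and ALDH1A1 had none. CRABP2, which carries RA, had a pair of sites upstream, just over 5 kb and 7 kb away; its relative CRABP1 and the uptake receptor STRA6 had none.

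The receptors differed from one another. RARB had 3 opened sites: chr3:25468576-25470499 at the recalled start, chr3:25421609-25423377 upstream by 48 kb, and chr3:25510009-25511279 inside the gene at 41 kb. Its window also held 3 p63-closed sites. Its RefSeq promoter, printed above, holds the DR5, but whether those bases lie in the site cannot be read across builds. RARA also had 3, of which chr17:38459032-38461529 lay 5 kb upstream of the start, and RXRA had 1, 49 kb upstream. RARG had none. Nuclear proteins tied to RA followed: NRIP1, a co-repressor of nuclear receptors, had the 3676 bp site chr21:16435161-16438836 across its start beside 2 p63-closed sites in the window, and the orphan receptor NR2F1 had a narrow site of 643 bp, chr5:92918345-92918987, at its start. NR2F2 had 2 sites, 14 kb upstream and 26 kb downstream, and 2 p63-closed sites. The homeobox factor MEIS2 had 3 sites near its start, the nearest 9 kb upstream. MEIS1 and TGM2 had 1 near site each.

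HOX genes, which set position along the body axis, had the densest windows of the lists: 20 distinct sites, or 14.7 per Mb (8.96 to 22.7), 5.26 times the autosomal value. With windows of 250 kb the density was 8.58 per Mb. Sites were at the starts of 10 of 41 genes (among them HOXA2, HOXA3, HOXA4, HOXB2, HOXB5, HOXB7, HOXB8, HOXC5 and HOXC6); near sites were found for 29. Neighbouring genes share them: the site counted at the start of HOXA3 is the one across that of HOXA4. Within 20 kb of the clusters there were 6 opened sites at HOXB, 2 at HOXC and 0 at HOXD. From HOXA2 to HOXA13 all opened sites lay on the side of the low-numbered genes. The site chr7:27140485-27144454 covered the start of HOXA2, chr7:27150002-27151535 lay in HOXA3, chr7:27169409-27171301 covered HOXA4, and chr7:27175333-27177035 lay 6 kb beyond HOXA4. None overlapped HOXA5 to HOXA13. A p63-closed site, chr7:27152742-27154226, also lay in HOXA3.

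In HOXB the 6 sites reached further up the cluster. They overlapped HOXB2, HOXB3 (2 sites), HOXB5, HOXB6 and HOXB7, the last with the 2647 bp site chr17:46687319-46689965, and none overlapped HOXB1. Instead, p63-closed sites flanked HOXB1 at chr17:46597861-46600184 and chr17:46609247-46610153. In HOXC, which has no gene numbered 1 to 3, the sites chr12:54424710-54425420 and chr12:54426250-54428918 overlapped HOXC6 and HOXC5. HOXD had neither an opened nor a p63-closed site, and EVX1, EVX2 and HOXB13 had no opened site near them.

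**Figure D2:**
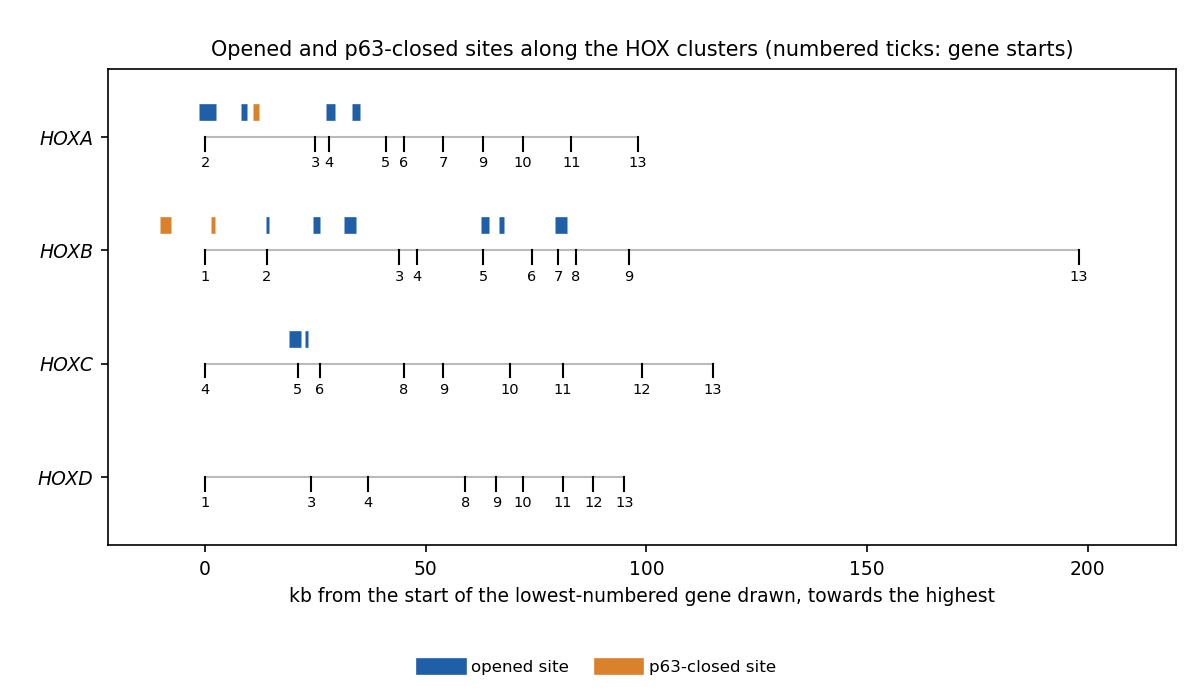
Opened and p63-closed sites drawn to scale along the 4 HOX clusters, in kb from the start of the lowest-numbered gene drawn (HOXA is drawn from HOXA2 on); numbered ticks are recalled gene starts. The opened sites drawn for HOXA end before HOXA5, those of HOXB reach the start of HOXB7, and HOXD has none.

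In the BMP list the most sites were near ID1. The ID genes encode small proteins that block the DNA binding of helix-loop-helix factors. ID1 had 6 opened sites within 100 kb. Adjacent sites, chr20:30191814-30193967 across the start and chr20:30194113-30196750 just after it, were less than 1 kb apart, 3 lay 32, 58 and 61 kb upstream, and 1 lay 74 kb downstream. No p63-closed site fell in this window, which also holds for 71.4% of autosomal windows of 200 kb. ID2 had sites 3 kb upstream and 4 kb downstream of its start (chr2:8817928-8819608 and chr2:8824811-8826361) and 1 at 72 kb upstream. ID3 had 1 site, chr1:23888261-23889276, 3 kb upstream, and ID4 had 1 at 79 kb.

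Feedback inhibitors of the pathway were also near sites. SMAD7, which blocks receptor signalling, had 3 sites inside the gene, 2, 8 and 20 kb from its start, the first being chr18:46474790-46475739. SMAD6 had 1 site 9 kb inside the gene, BAMBI, a decoy receptor, 1 site 11 kb upstream, and NOG, which binds BMPs outside the cell, 2 sites 23 and 65 kb upstream. Among ligands BMP4 had 2 sites at 32 and 42 kb and 2 p63-closed sites, BMP5 and BMP7 had 1 opened site each, and BMP2 and BMP6 had none. None of the transducers SMAD1, SMAD5 and SMAD9 had a site near its start, nor did SMAD3, although chr15:67470680-67471623 lay in that gene at 113 kb. BMPR2, CHRD, GREM1, INHBA and TGFBR1 also had none. The receptor TGFBR2 had 2 sites, at 68 and 72 kb, and ACVR1, BMPR1A, BMPR1B, BMPER, FST and TGFB2 had 1 each.

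In the WNT, FGF, hedgehog and Notch list, 6 genes had a site at the start. PTCH1, the hedgehog receptor, had 5 sites in all: chr9:98272763-98274040 lay 2 kb upstream, 3 lay inside the gene at 9, 46 and 58 kb, and 1 lay 73 kb upstream. GLI3, a transcription factor of the same pathway, had 1 site 5 kb inside the gene and 4 p63-closed sites, and GLI2 had none near its start and 1 in the gene at 138 kb. SHH and IHH had none. EGFR, the receptor of epidermal growth factor, had 3 sites: chr7:55085952-55088121 covered the start, chr7:55094239-55095597 lay 8 kb inside and chr7:54999783-55001837 lay 86 kb upstream. SPRY1, an inhibitor of receptor tyrosine kinase signalling, had the 3984 bp site chr4:124317582-124321565 at 2 kb.

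WNT genes were mixed. WNT7B had 3 sites inside the gene, the nearest being chr22:46371294-46373310 at 1 kb, and LEF1, a nuclear mediator of WNT signalling, had 3 upstream at 4, 56 and 97 kb. WNT3, WNT11 and TCF7L2 had 2 sites each, while WNT4, WNT6, WNT7A, WNT10A, TCF7, FZD1 and FZD5 had none. Of the Notch genes DLL1 and HES1 had 3 sites and JAG1 2, NOTCH1 none; HES1 also had 4 p63-closed sites. FGF8, FGF9, FGFR1, SPRY2 and SPRY4 had none. A single site each was near AXIN2, DKK1, FGF2, FGF10, FGFR2, FGFR3, FZD7, FZD8, SFRP1 and WNT5A, and FGFR2 also had 4 p63-closed sites.

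Genes in the list called surface ectoderm factors were near few sites each, apart from GATA6. Membership of the list does not show that a gene is particular to surface ectoderm. GATA6 had 5 opened sites. The site chr18:19748368-19752185, 3818 bp wide, covered the start, and chr18:19744623-19746729 lay 3 kb upstream. Another 2 lay inside the gene at 8 and 25 kb, and 1 lay 89 kb upstream. No p63-closed site lay near GATA6, which also holds for 71.4% of autosomal windows of 200 kb. GATA3, an early surface ectoderm and trophectoderm factor, had chr10:8095283-8097371, centred 1 kb upstream of its start and reaching into the gene. A second site lay 62 kb downstream of the GATA3 start, and 2 p63-closed sites lay in the window. DLX2 had 1 narrow site of 752 bp, chr2:172963352-172964103, 3 kb into the gene. With 2 sites each, none at the start, came EHF, GATA4, GRHL2, HAND1, TBX2 and TBX3. The nearest of these sites to a start lay 15 kb upstream of TBX2. A single site each was near GRHL1, 10 kb upstream, and near DLX1, DLX3, DLX4, GATA2, GRHL3, ISL1, KLF4, OVOL2 and TFAP2C.

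In this list 9 genes had no opened site near the recalled start: TP63, TFAP2A, TFAP2B, MSX1, MSX2, DLX5, DLX6, OVOL1 and KLF5. TP63, which encodes p63, held 1 opened site inside the gene, chr3:189558944-189561739, 211 kb from the recalled start. Only 1 start was used for TP63, and the distance of this site from any other start was not measured. In the windows of this list there were 31 p63-closed and 29 opened sites, so that opened sites made up 48.3% of both (Clopper-Pearson 95% interval 35.2 to 61.6%) beside 56.4% over all autosomes.

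Sites around the epithelial structure genes were gathered at few of them. KRT8 and KRT18, adjoining genes for the keratin pair of simple epithelia, had 8 opened sites each within 100 kb, the same 8 regions, and no p63-closed site. They ran from chr12:53267527-53268887 to chr12:53369760-53371360, and only chr12:53338886-53340238, 3 kb upstream of KRT18, was at a start. None of them overlapped KRT8 or KRT18, and whether they lie nearer to genes outside the lists was not counted. CTNND1, which encodes the cadherin-binding protein p120-catenin, had 5 sites, of which chr11:57528657-57530156 lay at the start, 3 lay 20, 49 and 94 kb upstream and 1 lay 38 kb inside. DSG3, a desmosomal cadherin of stratified epithelium, had 4 sites, at 48 kb upstream and at 38, 40 and 65 kb downstream. Other desmoglein genes adjoin it and are not in the lists, so whether the downstream sites lie nearer to them was not counted. DSP, the desmosomal plaque protein desmoplakin, had 3 opened sites 74 to 83 kb upstream beside 3 p63-closed sites, and EPCAM 2 opened sites upstream at 32 and 42 kb. CDH1 and CDH3, adjoining cadherin genes, shared 1 site, chr16:68689513-68691674, inside CDH3.

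Of the 29 genes 17 had none near the start. Among them were the basal keratins KRT5, KRT14, KRT15 and KRT17 and the differentiation genes FLG, IVL and KRT10. The same held for KRT6A, KRT19, CLDN1, COL17A1, DSC3, ITGB4, LAMA3, PERP and PKP1, although chr18:21372953-21375213 lay in LAMA3 at 104 kb. KRT1, KRT7, GJB2 and LAMB3 had 1 each. Opened sites made up 81.8% of the listed sites around this list (64.5 to 93.0%, 27 opened and 6 p63-closed), and 76.0% without KRT8 and KRT18. The opened share was 73.2% (57.1 to 85.8%) for the BMP and TGF-beta list, 65.4% (50.9 to 78.0%) for RA and 74.1% (53.7 to 88.9%) for HOX. It was 63.1% (50.2 to 74.7%) for the WNT, FGF, hedgehog and Notch list. For housekeeping genes it was 100% (47.8 to 100%, 5 opened sites), and for other tissues 72.7% (39.0 to 94.0%). The pluripotency list had 66.7% (38.4 to 88.2%), the neural and mesendoderm list 61.5% (40.6 to 79.8%) and the placode, crest and mesenchyme list 55.8% (39.9 to 70.9%). High shares were thus not particular to the signalling and epithelial lists, and no difference between lists was tested.

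**Figure D3:**
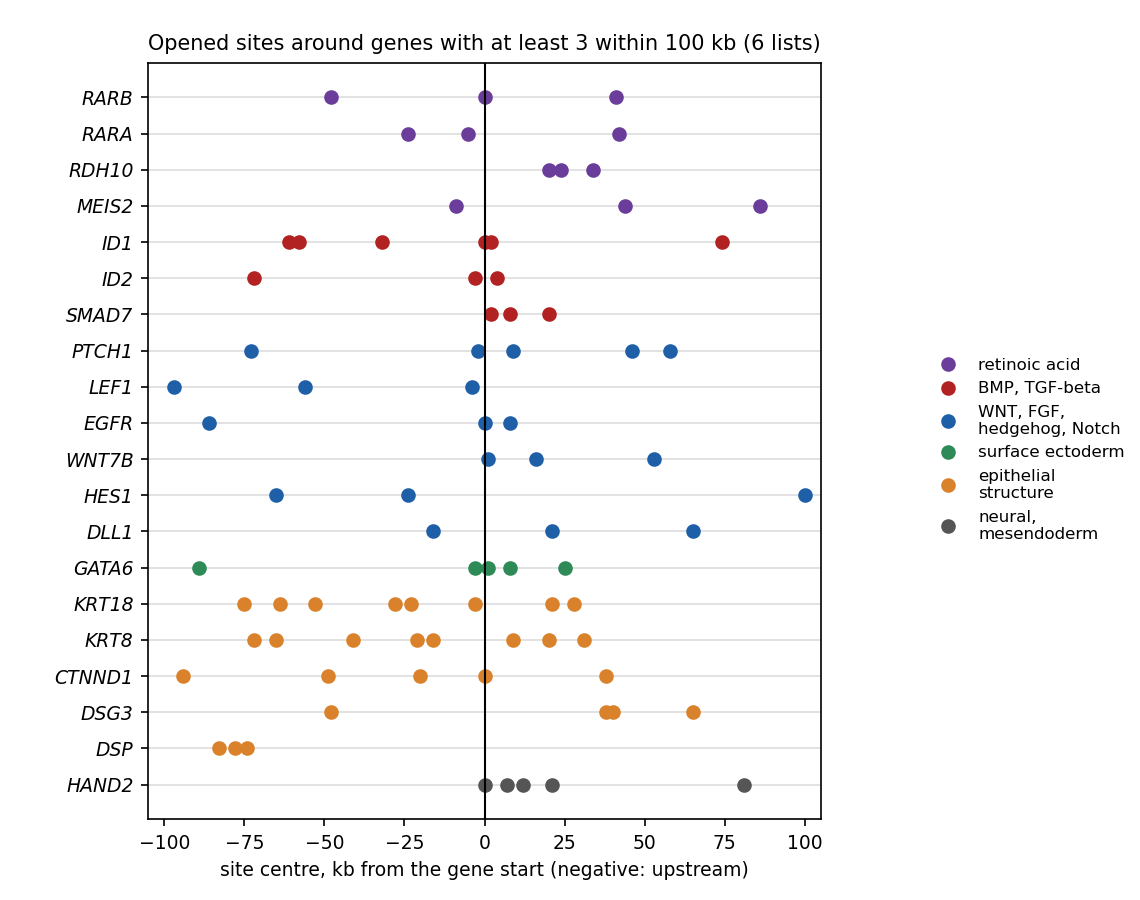
Opened sites within 100 kb of single genes, by distance in kb from the gene start along the direction of transcription; each point is 1 site and colours mark the gene list. Genes of 6 lists with at least 3 near sites are shown, and HOX, placode, pluripotency and other-tissue genes are not. KRT8 and KRT18 share their 8 sites, and ID1, GATA6, HAND2, PTCH1 and CTNND1 have 5 or 6 each.

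The lists named for other lineages had sites at single genes. HAND2, a helix-loop-helix factor of heart, limb and branchial arches, had 5 opened sites: the 3532 bp site chr4:174449571-174453102 across its start and 4 downstream at 7, 12, 21 and 81 kb. It was the only one of 24 neural and mesendoderm genes with a site at the start; EN2 and PAX6 had 2 sites each, all 48 to 65 kb upstream, and 14 genes (among them SIX3, EOMES, ZIC1, LHX2, EMX2, POU4F1, SOX1, NKX2-1, FOXA1, SIX6, GSC, FOXA2 and OLIG2) had none. In the placode, crest and mesenchyme list FOXI3, a forkhead factor of early placodal ectoderm, had 4 sites upstream at 6, 30, 45 and 98 kb. CDH2, the cadherin of neural and mesenchymal cells, had 3 near sites inside the gene at 19, 97 and 99 kb, SNAI2 and TBX1 had 2 each, and TCF21 had chr6:134213499-134214635 at 4 kb. Of these 37 genes 21 had none near the start. Among them were PAX2, PAX3, PAX8, ZEB1, ZEB2, IRX1, IRX2, IRX5, FOXC2, FOXE1, FOXF1, FOXF2, FOXL1, FOXQ1, RUNX1, RUNX2, SIX4, SOX9 and TWIST1. RUNX2 held chr6:45474441-45475735 inside the gene at 179 kb.

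At pluripotency genes no opened site lay at a start. POU5F1, SOX2, SALL4, PRDM14, DPPA4, DNMT3B, NODAL, LEFTY1, LEFTY2, FGF4, FOXD3 and OTX2 had none within 100 kb. NANOG had 3, all downstream: chr12:7977618-7979340, chr12:7985724-7987863 and the 3734 bp site chr12:8002679-8006412, at 36, 45 and 63 kb. L1TD1 had 3 downstream at 44, 85 and 94 kb, LIN28B had 2 and 3 p63-closed sites, and ZFP42 and ZIC2 had 1 each. Other genes lie in these windows, and which gene a site serves was not tested. In the list called housekeeping, which also holds the lipoprotein gene APOE, a gene of restricted expression, GAPDH, EEF1A1, LDHA and APOE had sites and ACTB, B2M and TUBA1B none. INS had 3 sites, at 8, 18 and 42 kb upstream, CEBPA 2, HBB, MYH7 and PGR 1 each, and AFP, ALB, BDNF, CFTR and HNF4A none.

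Density fell with distance from the genes of the signalling and epithelial lists. For the 149 genes of the RA, BMP, WNT, surface ectoderm and epithelial lists it was 15.4 sites per Mb (9.79 to 23.2, 23 sites) within 5 kb, 7.34 (5.29 to 9.92) from 5 to 25 kb, 4.89 (3.39 to 6.84) from 25 to 50 kb and 3.59 (3.13 to 4.10) from 250 to 500 kb. In the 60 genes of the neural, pluripotency, housekeeping and other-tissue lists 1 site lay within 5 kb, or 1.67 per Mb (0.0422 to 9.29), and 4.20 per Mb (2.01 to 7.72) lay from 5 to 25 kb. The HOX and placode lists are in neither set, and the sets were formed after the sites had been seen, so their difference was not tested. The single site of the second set within 5 kb is the one at HAND2.

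**Figure D4:**
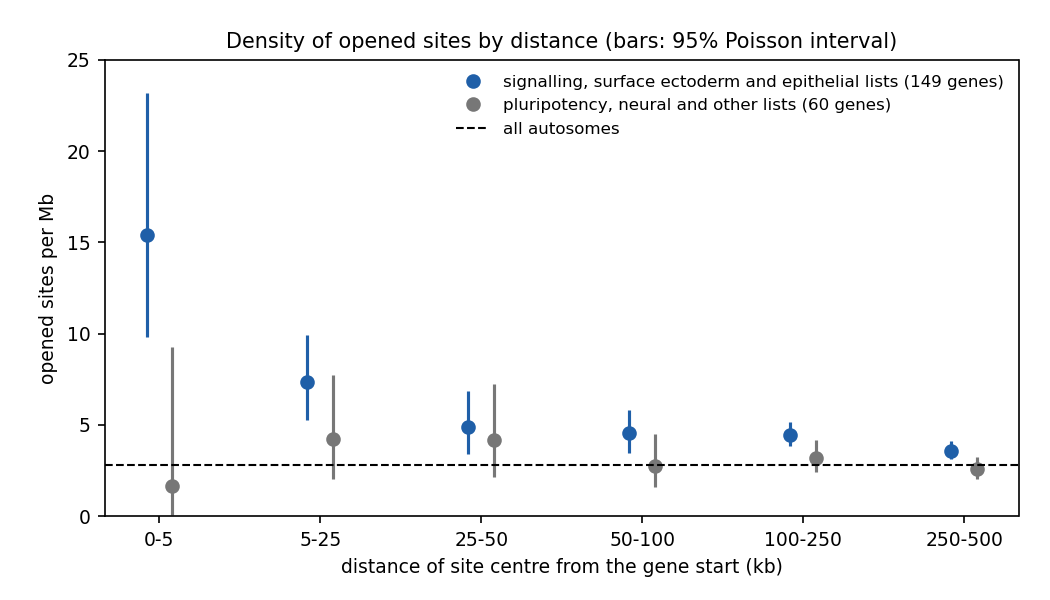
Opened sites per Mb in rings of distance from the gene start, for 149 genes of the signalling, surface ectoderm and epithelial lists and 60 genes of the neural, pluripotency, housekeeping and other-tissue lists; bars are 95% Poisson intervals and the dashed line is the autosomal value of 2.79. The first set falls from 15.4 to 3.59 per Mb, and the second lies between 1.67 and 4.20.

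A larger share of the sites at gene starts was wide, though narrow ones occurred there too. Over the autosomes the median width was 1603 bp (quartiles 1227 and 2063 bp), and 4.8% were 3 kb or wider. The 34 sites at listed starts had a median of 1970.5 bp (quartiles 1182.0 and 2644.8 bp). Of them 20.6% were 3 kb or wider, among them those at HOXA2, CYP26A1, NRIP1, GATA6, HAND2 and SPRY1. The 210 sites lying 5 to 100 kb from a listed start had a median of 1582.5 bp, and 4.3% reached 3 kb. The 5 widest of all were in or within 0.19 Mb of centromeric bands, led by chr7:61779919-61792280 with 12362 bp.

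Giemsa bands, which stain gene-poor chromatin dark, differed in their density of opened sites. Unstained bands held 3.20 opened sites per Mb (3.10 to 3.30), and the dark classes from 2.51 (2.35 to 2.67) to 2.71 (2.50 to 2.95). The opened share of both lists was 63.8% (62.6 to 65.0%) in unstained bands, 45.8% (43.6 to 47.9%) in the second darkest class and 50.4% (48.3 to 52.4%) in the darkest, so it did not fall steadily with staining. The centromeric bands held 0.723 opened sites per Mb.

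Sites also gathered in stretches, most of which overlapped no listed gene. There were 62 stretches of up to 200 kb with at least 6 opened sites, 416 sites in all, and 8 of the 62 overlapped a gene of the lists. No p63-closed site lay in 42 (67.7%), near the 71.4% of autosomal windows of 200 kb that held none. Of the 62 stretches, 11 held 8 or more opened sites. The genes in them were looked up after the stretches were found, so they describe these places only. The fullest, with 10 sites from 159031404 to 159206454 on chromosome 6, covered SYTL3 and reached into EZR, short of the EZR start. Of its sites 7 overlapped SYTL3 and 2 overlapped EZR, the latter 34 and 38 kb from the EZR start. EZR encodes ezrin, which ties actin to the apical membrane of epithelial cells. Stretches with 9 sites lay at TNKS1BP1 and APLNR on chromosome 11, PROM2 and KCNIP3 on chromosome 2, KRT8 and KRT18 on chromosome 12 and CCBE1 on chromosome 18. The 9 sites at CCBE1, a secreted factor of lymphatic growth, lay within that gene or 3 kb upstream of it, beside 3 p63-closed sites.

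There were 6 stretches with 8 sites. At PKP2, which encodes the desmosomal plaque protein plakophilin 2, 5 sites overlapped the gene and chr12:33048290-33050714 covered its start. TNS3, a focal adhesion protein, and EVA1A had 8 each, as did the HOXB stretch and that at ID1 and BCL2L1. The HOXB stretch also held 5 p63-closed sites. The most compact, 65 kb long on chromosome 11 from 1947797 to 2012505, lay downstream of the imprinted RNA gene H19, its sites 8 to 70 kb from the H19 start. INS lies further along and had 12 opened sites within 250 kb, the most of the 287 listed genes. These 12 include the 8 sites of the stretch beside H19.

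**Figure D5:**
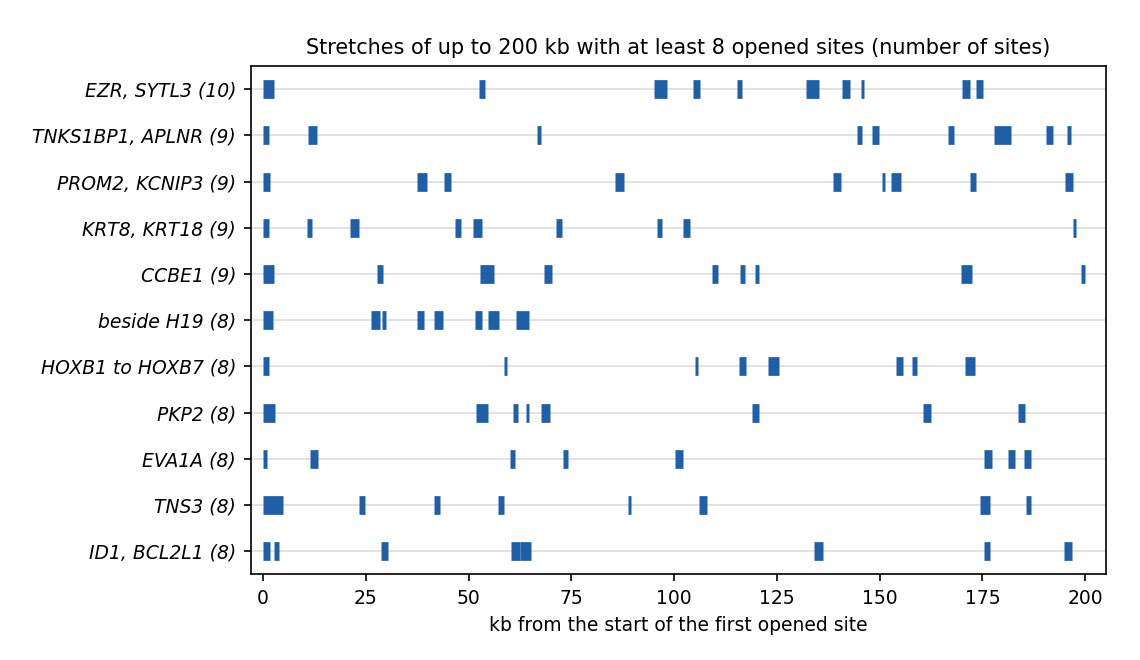
Opened sites, drawn to scale as blocks in kb from the first site, in the 11 stretches of up to 200 kb that hold at least 8; labels give genes overlapping or beside the stretch and the number of sites. The stretch at EZR and SYTL3 has 10 sites, and the one beside H19 packs 8 into 65 kb.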

How the data were processed

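ATAC-seq libraries of H9 cells were processed by the submitters, whose processing notes give the build hg19 (GRCh37) and the tools DESeq2, MACS2, Bowtie2, SAMtools and FastQC with no version or role. For thresholds and pooling of libraries the sources used here give nothing. Per the labels, only libraries passing an enrichment score at transcription start sites were sequenced deeply. The 2 site lists analysed were deposited by the authors with 4 columns and no header: chromosome, 0-based start, end and site number. They hold no counts, so depth per sample is unknown. Positions are printed 1-based. Chromosome X was left out.

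The sites and gene lists were chosen with earlier results of these data known. The gene starts and ends were recalled from general knowledge of hg19, in whole kb, and were checked against RefSeq GRCh38.p14 for symbol, chromosome, order and gene length, in which 63 of 324 differed by over 2 kb. Differences between recalled and GRCh38 starts were also looked at; no position was converted or changed. The 37 genes at dense stretches were recalled after those stretches had been seen. Named genes are, in each list, the 4 with the most sites within 100 kb (ties by sites within 5 kb, then symbol), those with a site within 5 kb and those with none; further members are named with their counts to account for the lists. Some members are counted in the lists but not reported by name or drawn here. Giemsa bands are the hg19 bands supplied with the R package circlize. Densities count each site once per list over the union of the windows of 100 kb on each side of the starts. Intervals are exact Poisson for densities and Clopper-Pearson for shares, at 95%. No test was made, since the lists carry no values per library. Windows of 50 and 250 kb, joined sites, any overlap, starts moved by 5 kb, lists without their most site-rich gene and exclusion of centromeric, variable and stalk bands were tried, the last 2 chosen after seeing the data. Counting was checked on simulated sites. Python 3.11.15, numpy 2.4.6, pandas 2.3.3, scipy 1.17.1 and matplotlib 3.10.9 were used.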

Additional observations from a re-analysis of the deposited data

How the results depend on the processing

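Of 125 values under another setting, 7 moved outside the counting interval of the value reported. The other 118 stayed inside it, apart from the shares of windows, which were set against no interval. With windows of 50 kb on each side the density was 10.8 per Mb for the retinoic acid list and 8.17 for the epithelial structure list, and the opened share was 80.0% for the retinoic acid list and 81.5% for the WNT, FGF, hedgehog and Notch list. With windows of 250 kb the HOX density was 8.58 per Mb. Without the 10 HOXB genes, opened sites made up 92.3% of the listed sites around HOX genes. Without centromeric, variable and stalk bands the autosomal density was 2.88 per Mb, and the shares of windows with at least 1, 3 and 5 sites were 38.1%, 4.23% and 0.590%. Leaving out the gene with the most sites (ID1, PTCH1, GATA6, or KRT8 and KRT18 together) gave 4.14, 5.00, 4.74 and 4.14 per Mb for their lists. These point values were above the autosomal value. No interval is given for them, so whether it would hold the autosomal value is not shown. Gene starts are recalled in whole kb, so a site counted at a start depends on the start chosen for a gene with several. No paired analysis was possible because neither list gives values by library, and for the same reason no library could be left out.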
